A study of Mus musculus with 22 samples.

Results

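C1qa, C1qb and C1qc, which encode the chains of complement C1q, were followed together with Apoe, the gene of apolipoprotein E, and Ccl8, a gene of a monocyte-attracting chemokine, in single cells sorted from mouse ileum. These 5 genes were taken by name from the 23091 genes of the deposited tables, as genes that mark tissue macrophages. CEL-Seq2, run on plates, tags each transcript at its 3′ end with a molecular identifier, so a long gene yields no more counts than a short one and levels need no correction for length. BALB/c recipients, 7 to 9 weeks old, received irradiation in 2 doses of 5 Gy and 5000000 bone marrow cells of C57BL/6 donors aged 7 to 10 weeks. Animals of 12 libraries also received 400000 donor T cells to give acute graft-versus-host disease (aGVHD), and those of 10 control libraries received none. All animals therefore share the irradiation and the allogeneic marrow. Leukocytes of the terminal ileum were taken at day 21, and cells positive for CD45, H2kb, CD11b and Ly6G were sorted. H2kb is the class I molecule of the donor strain and Ly6G a neutrophil surface protein, so the sort aims at neutrophils of the donor.

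C1q starts the classical complement pathway: it binds immune complexes and dying cells and then activates the proteases C1r and C1s. Unlike most complement proteins it is made mainly by macrophages and related myeloid cells, and its 3 chains assemble together. Apolipoprotein E carries lipids and is secreted by lipid-handling macrophages. CCL8 is released by some tissue macrophages and draws monocytes and other leukocytes. S100a8 and S100a9, used below as the neutrophil counterpart, encode the calcium-binding pair calprotectin, a main cytosolic product of neutrophils.

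A total of 500 transcripts or more made a barcode a kept cell, which 1383 were: 358 in control (11 to 60 in a library) and 1025 in aGVHD (74 to 95). The sum over kept cells of 1 library, counting genes with a name, ran from 8505 to 131747 transcripts in control and from 63468 to 234173 in aGVHD libraries, so that 1 cell weighs more in a control value. Levels over a library are given as CPM, a gene's transcripts per 1000000 transcripts of named genes. Every table numbers its barcodes alike; the numbers name positions and not shared cells. Library titles fall into a set with a date-like number (dated, 6 control and 8 aGVHD libraries) and a set marked G1 (4 and 4). Control replicates 5, 9 and 10 held 12, 12 and 11 kept cells and stand apart in size, so comparisons between the groups are also given without them or, for levels, without replicate 9. As a check of the gate, Ly6g itself was found in 77 of the 1344 kept cells with fewer than 10 C1q transcripts (122.2 CPM), while S100a8 was found in 910 of them. Neutrophil markers summed to 8568 to 24322 CPM in control and 20863 to 94588 CPM in aGVHD libraries, macrophage markers to 137.5 to 5948 and 537 to 7458 CPM.

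In the RefSeq gene order the C1q genes lie side by side on chromosome 4, as C1qb, C1qc and C1qa. The 250 bases before the start of C1qb, C1qc, Apoe (the first of 3 listed starts) and Ccl8 are shown because the genes were found in the same cells, as described below. They come from RefSeq (GRCm38.p6), at chr4:136886201-136886450 and chr4:136892915-136893164 on the minus strand, chr7:19699189-19699438 on the minus strand and chr11:82114935-82115184 on the plus strand. Sequences are written 5′ to 3′ along the gene, with capitals for motifs, each searched as spelled here and as its reverse complement. The first is GAGGAA, the core of the PU-box that myeloid transcription factors bind. The second is the TATA box, searched as TATAAA.
C1qb: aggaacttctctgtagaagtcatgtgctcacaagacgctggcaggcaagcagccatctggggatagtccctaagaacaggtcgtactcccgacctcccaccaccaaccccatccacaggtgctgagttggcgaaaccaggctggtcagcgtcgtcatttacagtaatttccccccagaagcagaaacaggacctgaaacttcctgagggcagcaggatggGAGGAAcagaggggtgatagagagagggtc
C1qc: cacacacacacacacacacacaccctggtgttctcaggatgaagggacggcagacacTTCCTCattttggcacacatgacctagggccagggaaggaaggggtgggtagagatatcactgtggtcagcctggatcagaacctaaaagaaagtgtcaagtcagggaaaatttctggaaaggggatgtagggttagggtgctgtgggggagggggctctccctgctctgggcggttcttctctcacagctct
Apoe: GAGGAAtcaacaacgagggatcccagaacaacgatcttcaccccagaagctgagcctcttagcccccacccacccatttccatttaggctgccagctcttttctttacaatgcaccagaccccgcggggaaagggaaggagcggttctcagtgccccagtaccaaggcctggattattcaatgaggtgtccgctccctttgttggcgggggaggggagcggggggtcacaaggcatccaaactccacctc
Ccl8: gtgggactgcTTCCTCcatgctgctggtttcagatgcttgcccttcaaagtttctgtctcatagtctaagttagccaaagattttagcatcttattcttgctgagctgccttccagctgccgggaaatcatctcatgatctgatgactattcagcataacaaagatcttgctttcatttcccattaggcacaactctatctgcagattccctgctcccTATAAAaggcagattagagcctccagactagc
Windows were listed for 4 of the 5 members. Each of those printed holds a PU-box core, as 23.3% of 32851 windows of this length do. It begins 30 bases before the window's end in C1qb, 193 in C1qc, 250 in Apoe and 240 in Ccl8. The Ccl8 window also carries a TATA box 32 bases before its end, as 12.4% of windows do at some place. Of the Apoe windows not printed, chr7:19698399-19698648 holds a PU-box core, and chr7:19698622-19698871 holds none but has 2 overlapping TATA box matches. No capitals overlap in the printed windows. A match is a stretch of letters and not a measured site.

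C1qa was listed at 0 to 1309.8 CPM in control libraries (median 139.3) and at 0 to 584 CPM in aGVHD libraries (median 80.2). The groups overlapped over almost their whole range, and the highest value of all came from control replicate 9, which held 12 cells. The control mean was 271 ± 389 CPM (SD, n = 10), or 155.9 ± 142.2 CPM (SD, n = 9) without that library, and the aGVHD mean 189.3 ± 201 CPM (SD, n = 12). C1qb, the most abundant of the chains, ran from 68.7 to 2510.4 CPM in control (median 593) and from 49.97 to 1376 CPM in aGVHD (median 457). It averaged 658 ± 693 CPM (SD, n = 10) and 548 ± 426 CPM (SD, n = 12), with 453 ± 252 CPM in control without replicate 9. C1qc stood at 0 to 1255 CPM in control (median 339) and 0 to 720.5 CPM in aGVHD (median 129.9), again with replicate 9 at the top of the control group. Its means were 358 ± 353 CPM (SD, n = 10) and 235 ± 243 CPM (SD, n = 12), with 258 ± 168.5 CPM in control without replicate 9. All 3 chains were highest in the same control library, and they also shared their lowest aGVHD library, replicate 12.

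Apoe was the most abundant member in both groups. It ran from 0 to 3493 CPM in control (median 834) and from 129.9 to 4952 CPM in aGVHD (median 466.1). The 0 was in control replicate 10 and the highest value in aGVHD replicate 3, so neither group lay wholly above the other. Means were 1073 ± 1006 CPM (SD, n = 10) and 1096 ± 1384 CPM (SD, n = 12), and the control mean was 804 ± 571 CPM without replicate 9. Ccl8 was listed at 0 in 5 of 10 control and 5 of 12 aGVHD libraries. Its median was 4.34 CPM in control and 11.9 CPM in aGVHD, and its highest values were 546.5 CPM in control replicate 8 and 882 CPM in aGVHD replicate 5. Ccl8 thus stood high in a few libraries of either group and at or near 0 in the rest. The control mean fell from 64.1 ± 170.7 CPM (SD, n = 10) to 10.5 ± 21.5 CPM (SD, n = 9) without replicate 8, against 160.9 ± 295 CPM (SD, n = 12) in aGVHD. By median level the order in control libraries was Apoe, C1qb, C1qc, C1qa, Ccl8, and it was the same in aGVHD libraries. In both groups the medians of neighbours in this order differed by less than the larger of their SDs between libraries.

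**Figure D1:**
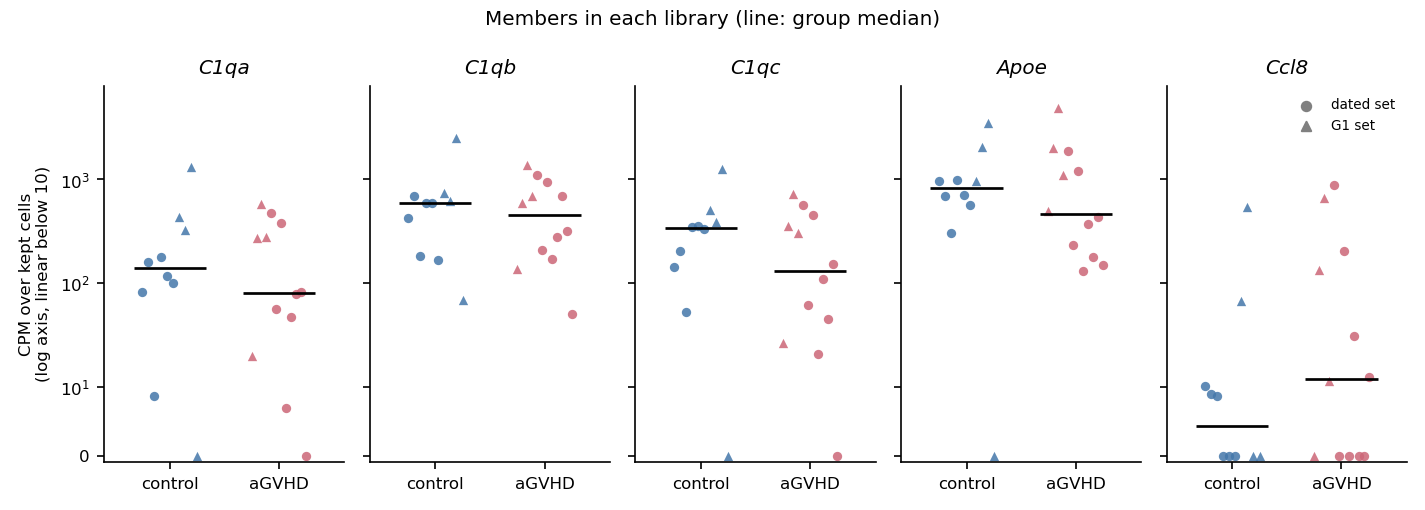
Level of each of the 5 genes over the kept cells of a library, in CPM on an axis that is logarithmic above 10 and linear below. Each point is 1 of 10 control or 12 aGVHD libraries, circles for the dated and triangles for the G1 title set, and the line is the group median. Points of the groups overlap for every gene, and control replicate 9 is the highest control point for the 3 C1q chains and Apoe.

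None of the members passed the test between groups. With limma-voom over 1715 genes, title set as covariate and Benjamini-Hochberg adjustment, 0 of the 4 members tested were called, where 8.22% of all genes tested were (4.2% higher and 4.02% lower). The log2 change in aGVHD was -0.65 for C1qa (SE 0.68, adjusted p = 0.618), -0.26 for C1qb (SE 0.49, adjusted p = 0.798), -1.02 for C1qc (SE 0.64, adjusted p = 0.330) and -0.19 for Apoe (SE 0.58, adjusted p = 0.878). None had an unadjusted p under 0.05, nor did any pass with limma-trend. The 95% intervals were wide, from -2.33 to 0.30 for C1qc and from -1.39 to 1.003 for Apoe, so they leave room for a change of 2-fold in Apoe either way. Ccl8 did not pass the filter on low counts (log2 change -0.04, SE 0.70, adjusted p = 0.968 with no filter). Without the 3 smallest control libraries the estimates were -0.55, -0.30, -0.99 and -0.56, in the same order of genes. By title set, Apoe was at -0.91 (dated) and 0.89 (G1), and the difference between the sets was itself not called (1.82, SE 1.12, adjusted p = 0.885 by limma-voom with an interaction term). Since the labels name no animal for a library, the p-values speak of library-to-library spread alone, part of which may be technical. Sums over sorted cells also cannot tell fewer cells with a gene from less RNA per cell.

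Related genes moved in part, and few of the calls held without the smallest libraries. The counts below are to be read against the 8.22% of all genes tested that were called. In the list of C1q and classical complement genes, 12 were in the files and 6 were tested: C3, the central complement component, rose (0.69, adjusted p = 0.0433, limma-voom) and Calr, the C1q-binding chaperone calreticulin, fell (-0.72, adjusted p = 0.0335). The list's median was -0.68, against 0.04 over all genes tested, but the 6 include the members C1qa, C1qb and C1qc, so it partly restates their changes. Of 5 complement receptors and regulators tested, 2 rose, the CR3 subunit Itgam (0.86, adjusted p = 0.0228) and the C5a receptor C5ar1 (0.72, adjusted p = 0.0338). Both are also made by neutrophils, and 8 of 14 neutrophil markers tested rose in the same comparison, S100a9 among them (1.53, adjusted p = 0.00901). The part of neutrophil content in the complement result was not tested. Among 6 lipid-handling genes, Apoe included, the lipid-droplet coat gene Plin2 rose (1.12, adjusted p = 0.0139, limma-voom). Among 16 resident-macrophage genes the lysosomal protease Ctsd rose (1.01, adjusted p = 0.0199, limma-voom), a share near that of all genes. The medians of these 2 lists were -0.05 and 0.13. Of 9 macrophage transcription factors, Irf8 (-1.29, adjusted p = 0.00797) and Runx3 (-0.93, adjusted p = 0.0437) fell. H2-Aa, an MHC class II chain, fell (-1.02, adjusted p = 0.0470) as the only one of 7 class II genes tested to pass. Neither of the 2 genes tested around Ccl8, the chemokine receptors Ccr1 (0.45, adjusted p = 0.132) and Ccr2 (-0.94, adjusted p = 0.124), passed. Most of these calls were lost without control replicates 5, 9 and 10, an alternative chosen after the values were seen, with which 24 of 2056 genes were called in all. Plin2 (1.01, adjusted p = 0.0478) and Irf8 (-1.48, adjusted p = 0.00334) still passed. C3 (0.65, adjusted p = 0.101), Calr (-0.73, adjusted p = 0.0759), Itgam (0.87) and C5ar1 (0.76, adjusted p = 0.0694 for both), Ctsd (0.84, adjusted p = 0.0694), Runx3 (-0.86, adjusted p = 0.110) and H2-Aa (-0.90, adjusted p = 0.159) kept their sign but did not pass, and 3 of 15 neutrophil markers tested rose.

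C1q was held by few cells. Of 1383 kept cells, 1085 had no C1q transcript, 228 had 1 or 2, 31 had 3 to 9 and 39 had at least 10. Those 39 cells, called C1q-rich here by a minimum chosen after the values were seen, came from 17 libraries and held 82.9% of all 2462 C1q transcripts. The highest cell, in aGVHD replicate 7, had 244 C1q transcripts, of which 56 were C1qa and 76 C1qc. Just inside and outside the minimum stood 1 cell with 10 and 2 cells with 9 transcripts. There were 10 cells that together held over 50% of C1q, 11 that held as much of Apoe and 3 that held as much of Ccl8, whereas for S100a8 and S100a9 this took 55 cells. A library's C1q level was accordingly that of a few cells: in control replicate 9, 1 cell carried all 46 C1qb transcripts. Since the minimum was set on C1q itself, its C1q values are a description.

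**Figure D2:**
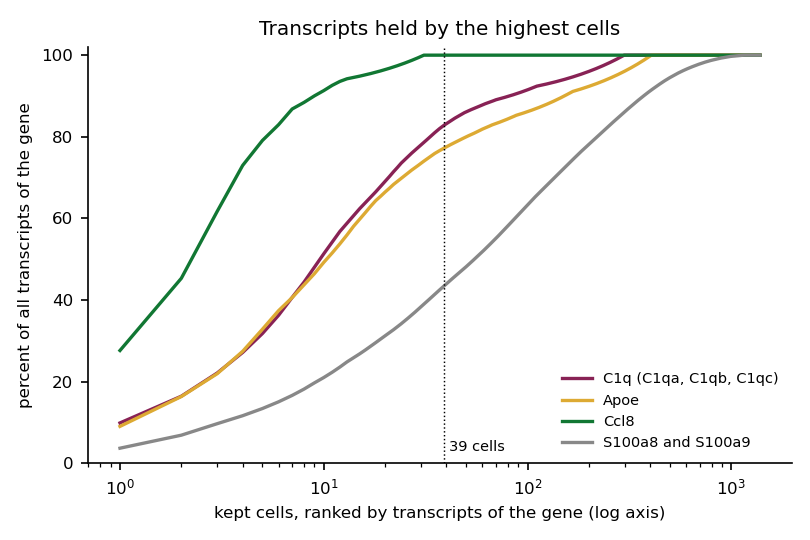
Cumulative percent of all transcripts of a gene (y axis) against the rank of the 1383 kept cells by that gene (x axis, log scale), for C1q, Apoe, Ccl8 and the S100a8 and S100a9 pair. The dotted line marks 39 cells, where the curves stand at 82.9% for C1q, 77.2% for Apoe, 100% for Ccl8 and 43.5% for the S100 pair.

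The C1q-rich cells carried the other members too. All 3 chains were found in 38 of the 39 cells, and C1qb was the highest chain in 31. Apoe was detected in 38 of them, at a median of 3422 CPM and up to 26709 CPM, and these cells held 71.6% of its transcripts. Of the 36 cells with at least 10 Apoe transcripts, 27 were C1q-rich and 35 had some C1q. Ccl8 was present in 10 of the 39 cells, each with at least 3 transcripts, and those 10 held 90.7% of Ccl8. The cell with most Ccl8, 86 transcripts, was in aGVHD replicate 3 and also had the most Apoe (243) and the second most C1q. So most Ccl8 transcripts lay in a subset of the C1q-rich cells, and only 2 of the 12 cells with at least 3 Ccl8 transcripts lay outside them. Of the 31 cells with any Ccl8, however, 10 were C1q-rich and 13 had no C1q transcript. Over all kept cells, 55 had both Apoe and C1qa, which is 80.9% of the 68 cells with C1qa and 13.6% of the 405 cells with Apoe. The gap between these percentages follows from the numbers of cells with each gene. Apoe was found in 29.3% of all kept cells.

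**Figure D3:**
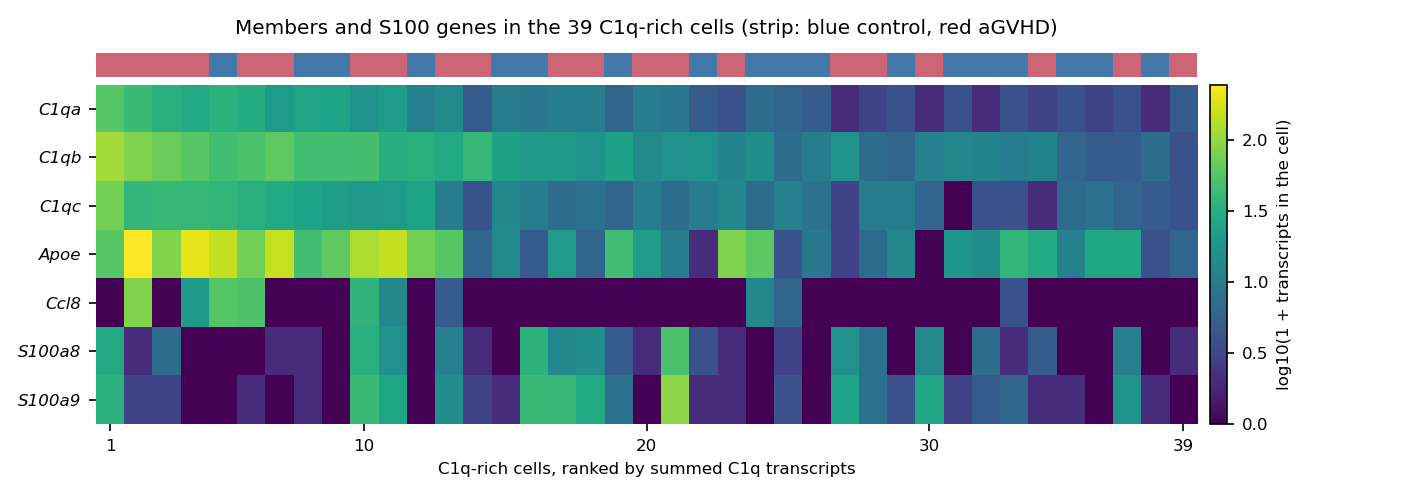
Transcripts of the members and of S100a8 and S100a9 (rows, log10 of 1 plus the transcripts in the cell) in the 39 C1q-rich cells (columns, ranked by summed C1q), with a strip marking the group of each cell. C1q and Apoe are detected nearly throughout, Ccl8 in 10 cells, and the S100 genes in cells scattered over the ranks.

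Both groups supplied C1q-rich cells: 18 came from 8 control libraries and 21 from 9 aGVHD libraries. Per library they made up 4.63% ± 3.14 (SD, n = 10) of kept cells in control and 1.998% ± 1.83 (SD, n = 12) in aGVHD, at 1.80 and 1.75 cells per library. Without the 3 smallest control libraries, 2 of which held no such cell, the control share was 5.42% ± 2.16 (SD, n = 7). The share was lower in aGVHD while the number per library was nearly equal, since aGVHD libraries held more kept cells. C1q stood at a median of 6493 CPM in the control and 7162 CPM in the aGVHD cells, Apoe at 2586 and 5285 CPM, and Ccl8 was present in 4 and 6 of them. These values are given without a test, because the cells were chosen after the values were seen. Their depth differed from that of other cells, with a median of 10598 transcripts against 2240.5. Of the 39, 21 exceeded 4 times the median total of their library, and no doublet caller was run.

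Other macrophage genes were found in the same cells. Of 14 macrophage markers in the files, 13 stood higher in the C1q-rich than in the other kept cells. C1qa, C1qb and C1qc are in that list and define the C1q-rich cells, so their higher level follows from the choice. Apoe, another member, is in it too. Csf1r, the receptor for the macrophage growth factor CSF1, was found in 36 of 39 C1q-rich and 233 of 1344 other cells (893 and 197 CPM). Aif1 (IBA1) was found in 32 and 62 cells (465.9 and 53.5 CPM), and the mannose receptor Mrc1 in 21 and 30 (283.7 and 18.7 CPM). Of 42 resident-macrophage genes in the files, 32 stood higher in these cells (12059 against 3426 CPM summed). Such counts have no share over all genes beside them, and 8 of 8 T or NK cell markers were higher as well. Lgmn was found in 32 of the cells and Sepp1 in 30. Some genes known from long-lived resident macrophages were at or near 0: Timd4, Fcrls and Tmem119 had no transcript in these cells, Cd163 was found in 1, Folr2 in 2 and Lyve1 in 5. The phagocytic receptors Mertk and Axl were found in 16 and 25 cells, and Cx3cr1, a receptor of intestinal macrophages, in 16. Of 9 monocyte markers, 4 stood higher in these cells and 5 lower (2407 and 2499 CPM summed): the receptor Ccr2 was at 573 and 117.3 CPM, but Ly6c2 at 254 and 473 CPM and Chil3 at 188.1 and 533 CPM. Most genes of the resident-macrophage list were thus higher, which without that share is a description only, while Timd4 and Cd163 were absent or nearly so. The cells are therefore called by their C1q content and not resident macrophages.

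Class II genes stood out in level. H2-Aa, H2-Ab1, H2-Eb1 and the invariant chain Cd74 were each found in all 39 C1q-rich cells, and all 8 class II genes were at a higher CPM than in other kept cells (40277 against 6326 CPM summed). Within the complement lists, the C3a receptor C3ar1 was found in 19 of 39 and 23 of 1344 cells, factor B (Cfb) in 16 and 20, and C1ra, a protease partner of C1q, in 9 and 7. Its partner C1s1 and C2, the next protease of the classical pathway, had no transcript in the C1q-rich cells. Vsig4, a complement receptor of some tissue macrophages, had none either. In the lipid list, 19 of 21 genes were higher in these cells, with Npc2, a lysosomal cholesterol carrier, in 34, the scavenger receptor Cd36 in 19 and Trem2, a lipid-sensing receptor, in 9. Apoe was among those higher, as were Apoa1 and Pltp, found in only 1 and 2 of these cells. Here too, counts of genes higher in C1q-rich cells have no share over all genes beside them. Of other lists, 8 of 8 T or NK cell markers and 11 of 14 macrophage transcription factors were higher, but 3 of 10 stromal and endothelial markers. Of the chemokine genes listed with Ccl8, Ccl2, Ccl7, Ccl12, Ccl24 and Ccl1 were found in 8, 3, 8, 10 and 1 cells. Markers of other cells were present as well. Neutrophil markers reached 10 or more transcripts in 29 of the 39 cells and were at 0 in 1, although none of the 20 stood higher than in other kept cells (5549 against 43785 CPM summed). Dendritic cell markers reached 10 transcripts in 2 cells (299 against 277 CPM summed) and B or plasma cell markers in 5 (520 against 10069.8 CPM). T or NK cell markers summed to 657 CPM against 39.3 CPM in other kept cells, with 29 of the 39 cells at 0 and 74.5% of these transcripts in 3 cells. The part of these other cells in the values was not tested.

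Cells were also split after all were brought to the same total. Each cell was thinned to 500 transcripts and called C1q-detected with at least 1 remaining C1q transcript, which 99 cells were. Before thinning, these cells had a median total of 2679 transcripts, against 2265.5 in other kept cells. For named genes alone the medians were 1588 and 1063, and unnamed gene models count toward the 500. H2-Ab1 (2.73), H2-Eb1 (2.64) and H2-Aa (2.51), the class II genes with enough counts, all rose in C1q-detected against other cells of the same library (log2 changes, limma-voom with library as block over 17 libraries, adjusted p = 6.34e-09, 3.22e-07 and 6.34e-09). Of the 61 genes tested, 21.3% were called, 9.84% higher and 11.5% lower. H2-Aa was higher in 17 of 17 libraries. Lyz1 rose too (1.93, adjusted p = 3.71e-07), with the reservation that the tables hold no row for its near-identical neighbour, so its reads may belong to either lysozyme. Lower in C1q-detected cells were 5 of 6 neutrophil markers tested, including Hdc, the histamine-forming enzyme (-0.96, adjusted p = 0.00569), and Irg1, the itaconate-forming enzyme (-0.94, adjusted p = 0.0205), as well as the chemokine gene Cxcl2 (-0.69, adjusted p = 0.0171). Apoe had too few counts after thinning to be tested.

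At full depth, 816 genes could be tested over 19 libraries and 46.9% were called (22.4% higher, 24.5% lower); deeper cells are then more often C1q-detected. Apoe was 2.87 higher on the log2 scale (SE 0.24, adjusted p = 1.99e-10, limma-voom) and higher in 18 of 19 libraries. Genes higher in every library included Ccr2 (2.50), the protease Ctsc (2.23), H2-Aa (2.19), H2-Eb1 (2.18), the lysosomal genes Psap (1.497) and Ctss (1.31), Tagln2 (1.38) and Akr1a1 (1.16). Genes lower in every library were S100a8 (-1.33), the growth factor gene Csf1 (-1.19), Fam134b (-1.01), Dusp16 (-0.98), Ypel3 (-0.90), Nudt4 (-0.90) and Cd300lf (-0.88). All 5 class II genes tested and 4 of 6 resident-macrophage genes rose (list median 0.99, against -0.11 over all genes), while all 14 neutrophil markers fell (median -0.93).

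Across groups, C1q was detected after thinning in 8.46% ± 5.66 of cells of control libraries (SD, n = 10) and 6.35% ± 3.32 of cells of aGVHD libraries (SD, n = 12). It ranged from 0% to 16.7% over control and from 0% to 10.7% over aGVHD libraries, and the difference of -2.10 percentage points was within the spread (two-sided permutation within title sets, p = 0.292, adjusted p = 0.522 over 3 shares tested). Over libraries of at least 20 cells (6 control and all 12 aGVHD) it was -4.08 points (exact permutation p = 0.0246). Without control replicates 5, 9 and 10 it was -3.34 points (exact permutation p = 0.0512). Both alternatives left out control libraries alone, and neither p is adjusted over the shares tested. Apoe was detected in 11.4% ± 7.07 and 9.72% ± 6.40 of cells (permutation p = 0.522), and Ccl8 in 0.653% ± 1.48 and 1.05% ± 1.37 (p = 0.499), or with differences of -3.06 and 0.12 points without those 3 libraries. Without thinning, C1q was found in 22.7% of control and 20.1% of aGVHD cells as the mean over libraries. Inside C1q-detected cells, limma-voom called 0 of 197 genes (0%) between the groups, with 9 at an unadjusted p under 0.05 and no other tool run. Apoe stood at -1.29 there (SE 0.64, adjusted p = 0.871), and S100a8 at 1.99 (SE 0.86, adjusted p = 0.871).

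S100a8 and S100a9 were lower where C1q was detected. S100a8 averaged 2172 CPM in C1q-detected and 7684 CPM in other cells of the 17 libraries with at least 3 cells of each kind, a mean log2(CPM + 100) difference of -2.25 (SE 0.26, n = 17). S100a9 averaged 3397 and 10257 CPM, a difference of -2.20 (SE 0.32, n = 17). Both were lower in 17 of 17 libraries (two-sided sign-flip permutation, p = 2e-05 for each). These levels are at full depth, where deep cells weigh more. In the sums of cells thinned to 500 transcripts, limma-voom gave -1.44 for S100a8 (SE 0.29, adjusted p = 0.000412) and -1.53 for S100a9 (SE 0.30, adjusted p = 0.000348), each lower in 14 of 17 libraries. By group, the full-depth S100a8 difference was -1.99 ± 1.16 over control (SD, n = 6) and -2.39 ± 1.05 over aGVHD libraries (SD, n = 11). That of S100a9 was -1.52 ± 0.89 over control (SD, n = 6) and -2.57 ± 1.40 over aGVHD libraries (SD, n = 11). A difference between the groups was not tested. Low-total barcodes of the same libraries, those under 500 transcripts, stood at 2085 CPM for S100a8 and 2788 CPM for S100a9, close to the means of the C1q-detected cells. After thinning, either S100 gene was detected in 45.4% ± 26.3 of C1q-detected and 60.6% ± 17.7 of other cells (SD, n = 17), a difference of -15.3 points, lower in 13 of 17 libraries (permutation p = 0.0201). Pooled over cells, these shares were 47.1% and 49.7% in control but 43.1% and 65.4% in aGVHD; whether the groups differ in this was not tested. At full depth this difference was 1.55 points (permutation p = 0.679), so co-detection by presence alone depends on depth.

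In the C1q-rich cells S100a8 and S100a9 together were lower than in the other kept cells in 17 of 17 libraries, with a median of 717 against 10065 CPM. They were lower even than in low-total barcodes in 15 of 17 (median 3716 CPM). The exceptions were aGVHD replicate 6, whose 1 such cell stood at 46412 CPM, and aGVHD replicate 11. Of the 39 cells, 7 had no S100a8 or S100a9 transcript and 14 had at least 10. Conversely, among 346 cells with at least 5 S100 transcripts of 500, a minimum chosen after the values were seen, C1q was detected in 17 (4.91%, exact 95% interval 2.89% to 7.75%), and 3 were C1q-rich. Among 550 cells with none it was detected in 55 (10.0%, interval 7.62% to 12.8%). The gap was small in control (4 of 50 cells against 9.94%) and larger in aGVHD (4.39% against 10.03%), and the difference between groups was not tested. These intervals cover counting error only.

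**Figure D4:**
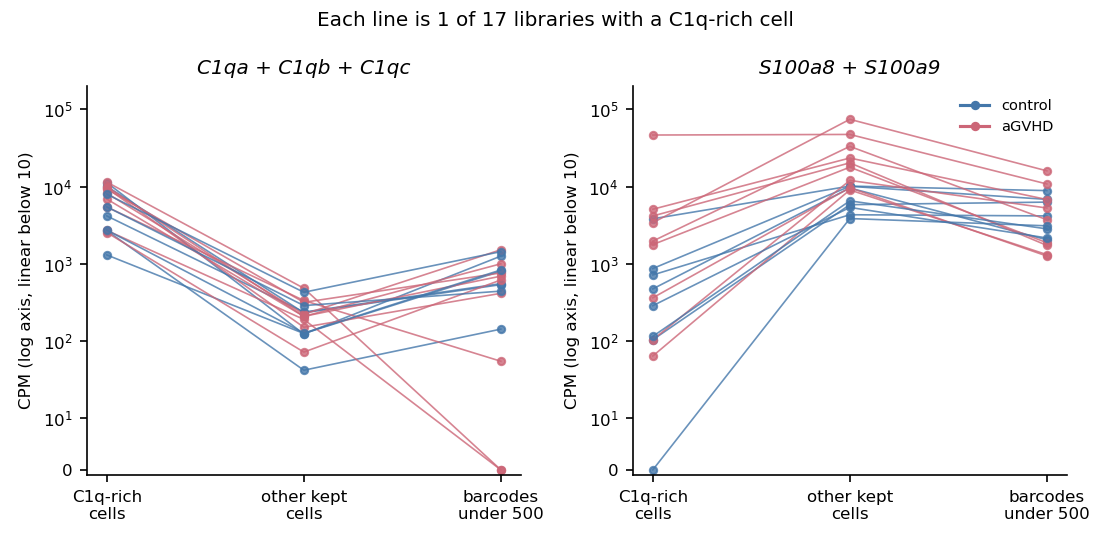
Summed C1q (left) and summed S100a8 and S100a9 (right), in CPM on an axis that is logarithmic above 10, for C1q-rich cells, other kept cells and barcodes under 500 transcripts; each line is 1 of 17 libraries. C1q-rich cells were set aside by their C1q, so the order of the C1q points follows in part from that choice. S100 in C1q-rich cells lies below other kept cells in all 17.

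Background was read from the low-total barcodes. C1qa was higher in kept cells than in those barcodes of the same library by 0.92 in log2(CPM + 100) (SE 0.21, higher in 19 of 22 libraries, two-sided sign-flip permutation p = 0.00032). C1qc was higher by 0.84 (SE 0.23, 18 of 22, p = 0.00177). C1qb differed by 0.49 (SE 0.28, 12 of 22, p = 0.100), with 428 CPM in low-total barcodes. Ccl8 differed by 0.24 (SE 0.25, 10 of 22, p = 0.358). Apoe was lower in kept cells, by -0.83 (SE 0.27, higher in 5 of 22, p = 0.00551): it averaged 1400 CPM in low-total barcodes, was above 500 CPM in every one of the 22 libraries there, and stood at 1086 CPM in kept cells. Adjusted over these 5 tests the p-values were 0.0016, 0.00442, 0.125, 0.358 and 0.00918. Against barcodes under 100 transcripts the Apoe difference was 0.17 (p = 0.717) and that of C1qb 1.32 (p = 0.00384). Kept cells include the C1q-rich cells, which held 82.9% of C1q. In the 17 libraries with a C1q-rich cell, the other kept cells had less summed C1q than low-total barcodes in 14 (medians 208.7 and 617.5 CPM). The C1qa and C1qc differences therefore need not hold for kept cells that are not C1q-rich.

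The cells with few C1q transcripts differed from the C1q-rich cells in the mix of chains. C1qb made up 50.4% of C1q transcripts in C1q-rich cells (1028 of 2040, exact 95% interval 48.2% to 52.6%), 67.3% in cells with 3 to 9 (interval 59.3% to 74.7%), 78.8% in cells with 1 or 2 (212 of 269, interval 73.4% to 83.5%) and 76.4% in low-total barcodes (interval 68.6% to 83.1%). The intervals cover counting error only and treat transcripts of 1 cell as independent, while single C1q-rich cells ran from 28.6% to 84.4%. In 14 of 15 libraries with at least 5 C1q transcripts outside C1q-rich cells, C1qb took the larger share outside them (medians 50.1% and 77.8%). The ratio of Apoe to C1q transcripts followed another order: it was 0.941 in C1q-rich cells, 1.52 in cells with 3 to 9 C1q transcripts, 0.591 in cells with 1 or 2 and 2.53 in low-total barcodes. The classes of kept cells were chosen by their C1q and the low-total barcodes were not, so these ratios are not alike. Over all 1344 kept cells that were not C1q-rich, those with no C1q included, the ratio was 1.81. Both splits were seen after the values and are given without a test, and whether 1 or 2 C1q transcripts mark expression in that cell was not tested. Of the 298 cells with any C1q at full depth, 228 were of this kind. Of the 1344 cells that were not C1q-rich, 212 had C1qb and 367 had Apoe, but 29 had C1qa.

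**Figure D5:**
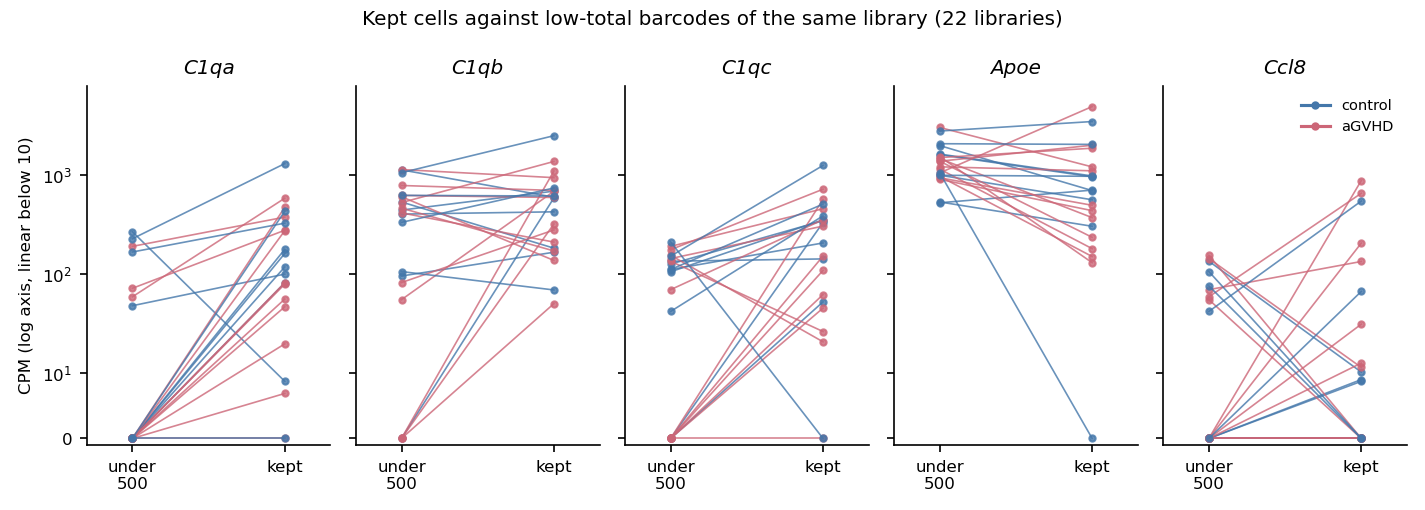
Level of each member in barcodes under 500 transcripts and in kept cells, in CPM on an axis that is logarithmic above 10; each line is 1 of 22 libraries, coloured by group. C1qa rises from the low-total to the kept barcodes in 19 libraries and C1qc in 18, while Apoe is higher in the low-total barcodes in 17.

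Genes most like the members were sought over the 1383 kept cells among 8014 named genes found in at least 20 cells, by Pearson's r of log-scaled shares. These r values share library and depth and are a description. Among the genes nearest to summed C1q were H2-Aa (0.39), Apoe (0.37), Aif1 (0.34), Gbp2b (0.33), H2-Ab1 (0.32), Sepp1 (0.32), H2-DMa (0.32), Snx5 (0.32) and H2-Eb1 (0.31). Apoe was nearest to C1qc (0.40), C1qa (0.38), C1qb (0.34), H2-Aa (0.30) and Sepp1, the selenoprotein P gene (0.29). Ccl8 was nearest to Gbp2b, an interferon-induced GTPase (0.38), Ms4a7 (0.34), C1qa (0.33), Vcam1, an adhesion molecule (0.31), and C1qc (0.30). Over the 22 libraries, log2(CPM + 100) of the chains went together with r of 0.87 to 0.95, and Apoe with the chains at 0.83 to 0.91, values that rest on few cells per library.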

How the data were processed

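Per the labels, cells sorted from ileum were sequenced by CEL-Seq2. Tools named in the submitters' processing notes are BWA 0.6.2-r126 and bcl2fastq 2.17.1.14. The build of the genome they aligned to is not given in the sources consulted. The deposited values are the authors' transcript counts per gene and barcode, estimated from molecular identifiers for collisions in a pool of 4096 and not normalised for depth; they were rounded here to whole transcripts. They are estimates and not raw counts, and limma-voom on their sums was the test; no count model was run.

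Kept cells had a total of 500 transcripts or more, and the other barcodes served as low-total barcodes. Unnamed gene models stayed out of sums (a median of 52.3% of a library's transcripts), leaving 16266 named genes. No doublet caller was run. Sums per library were tested with limma 3.58.1 (R 4.3.3): voom weights, trimmed-mean scaling (0.3 trimmed by ratio, 0.05 by level), a low-count filter (10 transcripts in a library of median size, total of 15), title set or library in the model, and Benjamini-Hochberg adjustment at 0.05. Shares and paired levels were compared by two-sided permutation (100000 resamples, or exactly where a group held fewer than 10 libraries) on log2(CPM + 100) for levels, with Python 3.11.15 and scipy 1.17.1. On simulated sums with a dispersion of 0.2, between groups over all cells (1779 genes) the test found 49.4% of genes changed by 1 and 99.0% of those changed by 2 in log2, 100% of both for C1q status (66 genes), and 27.6% and 100% within C1q-detected cells (203 genes). For C1q status only 9 and 8 changed genes were tested. The dispersion was a set value and was not fitted to the members, which few cells carry, so these percentages need not hold for them.

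Members and gene lists were chosen with earlier results of these data known. Genes were named by rule: the members; from each list the 4 genes with the largest change among those that passed, or 2 with the highest level where none did; and from C1q status the genes that moved 1 way in every library. Lists were C1q and classical complement, complement receptors and regulators, lipid handling, Ccl8 and its chemokine neighbours, resident macrophage, macrophage transcription factors and MHC class II; marker lists covered neutrophils, macrophages, monocytes, dendritic cells, eosinophils and mast cells, B, T or NK, epithelial and stromal cells. List genes named beside C1q-rich cells were chosen after their values were seen. Alternatives covered scaling, filters, cell minimums, title sets, depth, pseudocounts, the title numbers as a block and leaving out each library. One item that these rules cover is not reported here.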

Additional observations from a re-analysis of the deposited data

Results flagged for a closer look

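In control libraries, the highest sample lay further from the next one than Dixon's 95% critical value (0.466 for 10 samples) allows in 5 of 9 measures. Chance flags about 1 in 20 such groups, and the measures share libraries, so they are not independent. Control replicate 9 stood apart at 1309.8 CPM of C1qa (next 432 CPM), 2510.4 CPM of C1qb (next 741 CPM) and 1255 CPM of C1qc (next 509 CPM). Control replicate 8 stood apart at 546.5 CPM of Ccl8 (next 66.4 CPM) and in the share of cells with Ccl8 detected after thinning, 4.44% (next 2.08%). In replicate 9, 1 of 12 kept cells carried the C1qb transcripts.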

How the results depend on the processing

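Without each library in turn, log2 changes in aGVHD over all gated cells ranged from -1.05 to -0.18 for C1qa, -0.48 to -0.01 for C1qb, -1.26 to -0.59 for C1qc and -0.65 to -0.01 for Apoe, none called. Estimates that changed sign, none of them called, were C1qb with no filter on low counts (0.0616) and Apoe (0.19 with no filter, 0.89 in the G1 set alone). Genes called over all cells split into 72 higher and 69 lower, 98 and 62 without trimmed-mean scaling and, of 190 with limma-trend, 67 lower. They numbered 1822 with no low-count filter (which moved the median of all genes to -0.56), 21 with the quality filter, 42 in the dated and 4 in the G1 set, 16 in libraries of at least 20 cells and 24 without the 3 smallest control libraries, an alternative chosen after seeing the data. Leaving out 1 library gave 53 to 199, with 53 without control replicate 1, 84 without 4, 82 without 6 and 83 without 9; the cause was not tested. For C1q status 13 genes were called, 383 at full depth, 22 with at least 2 C1q transcripts and 10881 of 11957 with no filter, and 10 to 24 without 1 library (23 and 24 without aGVHD replicates 10 and 11). Within C1q-detected cells 0 became 1 with at least 2 C1q transcripts, with no filter and without control replicate 4 (range 0 to 1), and Apoe there was 0.42 with at least 2 C1q transcripts, against -1.85 to -1.01 without 1 library. Shares without 1 library differed by -3.04 to -1.19 points for C1q, -3.12 to -0.28 for Apoe and 0.10 to 0.82 for Ccl8. The C1q difference passed, without adjustment, at -4.08 points in libraries of at least 20 cells, which leaves out control libraries alone. The Apoe share turned to 2.003 points without thinning and 2.58 in the G1 set, and that of Ccl8 to -0.0458 without thinning, -0.497 thinned to 1000 transcripts and -0.0393 in libraries of at least 20 cells, none passing. The S100 share turned to 1.55 points without thinning. Against barcodes under 100 transcripts Apoe turned to 0.17 and C1qb passed at 1.32.

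Title numbers 1 to 6 occur in both groups of the dated set, but same-numbered libraries did not deviate together in every pair (correlations -0.06, -0.10, 0.18, 0.06, 0.17 and 0.17; 3 of 6 libraries were closest to their own number), so the block is only an alternative. With the replicate block 24 genes were called against 5 for the same libraries without it. C1qa turned to 0.45 and C1qb to 0.16 with the block (C1qb 0.0576 without it), and none of the members was called. Paired by number, the C1q share differed by -0.249 points (exact p = 1 over 6 pairs), against -2.10 over all libraries, that of Apoe by -3.48 (exact p = 0.25) and that of Ccl8 by 0.996 (exact p = 0.25).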
